A study of Mus musculus with 3 samples.

Results

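The 10 genes described here encode the main heat shock proteins of the mouse cell, and were taken by symbol from the deposited table of 14355 genes, where all 10 were found. Hspa1a, Hspa1b, Dnajb1 and Hsp90aa1 were grouped as inducible members, Hspa8, Hsp90ab1 and Dnaja1 as constitutive members of the cytosol, and Hspa5, Hspd1 and Hspe1 as members of the organelles. They were measured in 697 naive CD4 T cells of C57BL/6 mice aged 8 to 12 weeks, males and females pooled, from spleen and lymph node. The cells were sorted fresh into 3 plates as live single cells that bore TCRb, the naive cell marker CD62L, CD4 and CD5 and lacked CD44, CD25 and CD8, each plate being 1 labelled sample, with 324 cells in plate 3, with 201 in plate 2 and 172 in plate 1. No group was treated, stimulated or genetically altered. The authors' CD5 class put 174 cells in High, 349 in Middle and 174 in Low. CD5 lies on the T cell surface in amounts set by tonic receptor contact with self ligands, and the study used it to order cells by self-reactivity.

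Heat shock proteins are molecular chaperones that bind unfolded stretches of other proteins and release them in cycles of ATP use. When unfolded protein builds up in the cytosol, the factor HSF1 is released from chaperones, forms trimers and binds heat shock elements, which are repeats of GAA and its complement TTC, in the promoters of chaperone genes. The endoplasmic reticulum has its own response, in which BiP, the product of Hspa5, is released from stress sensors and its gene is switched on. Heat shock and immediate early genes are also known to be switched on in some tissues while these are taken apart into single cells.

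The sorted cells carried the transcripts of their gate. All 9 naive CD4 T cell markers were found in each plate, in 60.2% to 99.4% of cells of plate 3, 56.2% to 90.0% in plate 2 and 56.4% to 95.3% in plate 1. Endogenous counts totalled 1404160 in plate 3, with 1113630 in plate 2 and 726230 in plate 1, with medians per cell of 3952, 5449 and 3749 in that order. Spike-in transcripts took 22.8%, 15.1% and 19.7% of counts in the same order. Levels are given as CPM, counts-per-million of endogenous counts, of all cells of a plate or class together. Counts come from transcript 3' ends and were not divided by length. Whether the plates hold cells of separate animals is not stated, so the spread between them may be technical. Intervals and the limits that a count of 0 allows (3 counts) cover counting error only.

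The promoters of the members are shown first because heat shock elements are the sites where HSF1 acts. The promoter sequences used held no window for Hspa8, Hsp90aa1 and Hsp90ab1, so these could not be searched. Dnaja1 alone thus stood for the constitutive members of the cytosol. Among the members searched, the elements found did not follow the grouping. Each of these was searched on both strands for the heat shock element in its short forms GAANNTTC and TTCNNGAA. They were also searched for the endoplasmic reticulum stress element, CCAAT and CCACG separated by 9 bases. Windows ran from 250 bases before to 50 after the start in RefSeq (GRCm38.p6). Matches of different forms can overlap, as they do in Hspe1. Hspa1a and Hspa1b, which encode almost the same inducible HSP70 protein from neighbouring genes, differed at 3 of the 250 upstream bases. Each held 1 heat shock element at bases -104 to -97 from its start. The 200 bases before each start lie at chr17:34972157-34972356 for Hspa1a and chr17:34959239-34959438 for Hspa1b, both on the minus strand, and differ at 1 base. For Dnaja1 (chr4:40722333-40722362, plus strand), Hspe1 (chr1:55088053-55088082, plus strand) and Hspa5 (chr2:34772020-34772049, plus strand) the 30 bases around the match are given. These 3 stretches lie within annotated exons of GENCODE transcripts. Capitals mark the matched elements.
Hspa1a: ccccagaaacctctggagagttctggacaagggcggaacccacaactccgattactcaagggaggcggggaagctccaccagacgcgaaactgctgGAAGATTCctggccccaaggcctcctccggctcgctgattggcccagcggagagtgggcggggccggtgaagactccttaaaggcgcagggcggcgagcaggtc
Hspa1b: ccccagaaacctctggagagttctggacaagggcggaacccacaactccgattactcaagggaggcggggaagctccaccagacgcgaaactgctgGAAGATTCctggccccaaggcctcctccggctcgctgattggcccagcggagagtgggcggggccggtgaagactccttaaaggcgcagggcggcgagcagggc
Dnaja1: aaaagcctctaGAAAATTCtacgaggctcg
Hspe1: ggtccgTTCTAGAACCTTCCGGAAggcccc
Hspa5: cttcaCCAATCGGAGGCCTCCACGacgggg

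Either short heat shock element was present in 15.1% of all 32851 windows and in at least 1 window of 17.0% of genes, so a match alone is common. The element of Dnaja1, which encodes an HSP40 partner of HSC70, lay at -124 to -117 in 1 of its 3 windows. Hspe1 and Hspd1, which encode the lid and the barrel of the mitochondrial chaperonin, are divergent neighbours and share the region printed for Hspe1, where 3 matches overlap. The endoplasmic reticulum stress element of Hspa5 spanned -65 to -47 and was found in 0.119% of windows. Neither of the 2 windows of Dnajb1 held a match. Hspa8, Hsp90aa1 and Hsp90ab1 were not searched.

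Transcripts of the stress-inducible HSP70 genes stood far higher in plate 3 than in the other plates. Hspa1b, the more abundant copy, was at 277 CPM in plate 3 (388 counts), compared with 17.1 CPM in plate 2 (19 counts) and 26.2 CPM in plate 1 (19 counts). Hspa1a was at 69.1 CPM in plate 3 (97 counts), compared with 3.59 CPM in plate 2 and 5.51 CPM in plate 1 (4 counts each). The intervals of plate 3 overlapped those of neither other plate for either gene. Summed, the pair was 16.7-fold higher in plate 3 than in plate 2 (95% interval 11.02 to 26.7, exact, for counting error) and 10.9-fold higher than in plate 1 (7.19 to 17.4). The plates form 1 group of single samples, so these differences were not tested.

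The other inducible members differed between plates by much less. Dnajb1 encodes an HSP40 co-chaperone that hands substrates to HSP70, and it was at 143 CPM in plate 3, compared with 82.6 in plate 2 and 67.5 in plate 1. Hsp90aa1 encodes the inducible HSP90 of the cytosol, and it was at 450 CPM in plate 3, with 328 in plate 2 and 285 in plate 1. Plate 3 was thus 1.73-fold and 2.12-fold above plates 2 and 1 for Dnajb1, and 1.37-fold and 1.58-fold for Hsp90aa1.

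A pair of the constitutive genes of the cytosol followed the same order of plates at a similar size. Dnaja1 was at 371 CPM in plate 3, with 224 in plate 2 and 191 in plate 1. Hsp90ab1, the constitutive HSP90, was at 1259 CPM in plate 3, with 893 in plate 2 and 846 in plate 1. Hspa8 encodes HSC70, the constitutive HSP70, and was at 1077, 984 and 823 CPM in plates 3, 2 and 1. Its plate 3 value was 1.09-fold that of plate 2 and 1.31-fold that of plate 1.

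The organelle members showed no common order. Hspa5 was at 276 CPM in plate 3, below the 336 CPM of plate 2 and near the 260 CPM of plate 1. Hspe1 was at 337, 286 and 340 CPM in plates 3, 2 and 1. Hspd1 was alike in plates 3 and 2, at 81.9 and 77.2 CPM, and was at 30.3 CPM in plate 1 (22 counts). The ratio of Hspe1 to Hspd1 counts was accordingly 4.11 and 3.70 in plates 3 and 2 and 11.2 in plate 1.

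**Figure D1:**
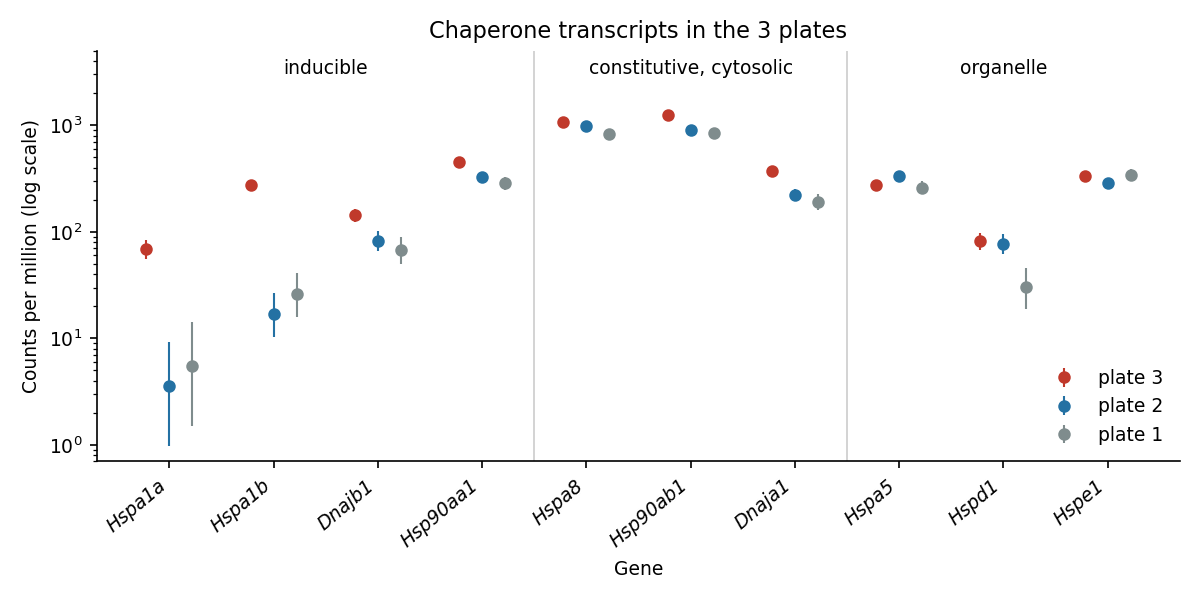
Level of each member in CPM (log scale) in plates 3, 2 and 1, with exact 95% Poisson intervals for counting error. Hspa1b is at 277 CPM in plate 3, compared with 17.1 and 26.2 CPM in plates 2 and 1, while Hspa5 and Hspe1 lie within a narrow band in all 3 plates.

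In 3 of 4 pairs of related genes the proportions were alike in all plates, and the exception was the pair Hspe1 and Hspd1 given above. Hspa1b counts were 4.001 times those of Hspa1a in plate 3 and 4.75 times in each of plates 2 and 1. Hsp90aa1 counts were 0.357, 0.367 and 0.337 of those of Hsp90ab1 in plates 3, 2 and 1. Dnajb1 counts were 0.386, 0.369 and 0.352 of those of Dnaja1. The plate difference of the HSP90 and HSP40 pairs was therefore shared by the inducible and the constitutive gene of each pair, and the HSP70 pair of Hspa1a and Hspa1b stood apart from Hspa8. As a result, the inducible members made up 21.6% of all member counts in plate 3 (exact binomial 95% interval 20.6 to 22.7), with 13.3% in plate 2 (12.2 to 14.5) and 13.4% in plate 1 (11.9 to 14.9).

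Among the 8497 genes with at least 20 counts over the plates, 159 (1.87%) were at least 2-fold higher in plate 3 than in both other plates, and 2 of the 10 members, Hspa1a and Hspa1b, were among them. Ordered by the smaller of the 2 folds, Hspa1a ranked 1 and Hspa1b ranked 4 of the 8497 genes. Dnajb1 ranked 296, Dnaja1 361, Hsp90ab1 700 and Hsp90aa1 786. Hspa8, Hspd1, Hspe1 and Hspa5 followed at ranks 1987, 2257, 2905 and 4835. All 7 members of the cytosol and 1 of the 3 organelle members, Hspd1, were above both other plates by any margin, as were 33.0% of all genes. The MHC class II genes Cd74 and H2-Ab1 held ranks 2 and 3 and H2-Aa rank 5, so the HSP70 pair did not stand alone at the top.

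**Figure D2:**
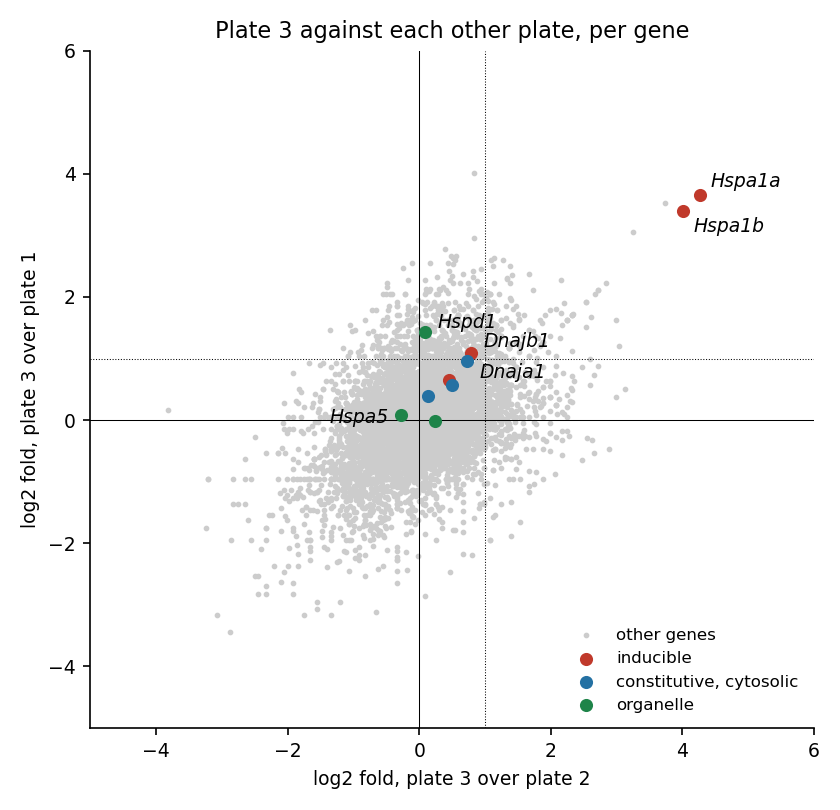
Log2 fold of plate 3 over plate 2 (horizontal) and over plate 1 (vertical) for 8448 genes with counts in plates 1 and 2; dotted lines mark 2-fold. Hspa1a and Hspa1b lie at the upper right, at 12.5-fold and 10.6-fold or more on both axes, next to a few other genes, and the other 8 members lie inside the cloud.

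Other chaperones of the cytosolic heat shock response were listed to see how far the difference reached. Of 18 listed heat shock factors and inducible chaperones, 12 had enough counts, of which 7 lay above both other plates (33.0% of all genes did) and 2 were at least 2-fold higher than both (1.87% of all genes). Hsph1, an HSP110 exchange factor for HSP70, was at 99.0 CPM in plate 3, with 39.5 in plate 2 and 27.6 in plate 1. Dnajb4, an HSP40, was at 29.9, 10.8 and 8.26 CPM in plates 3, 2 and 1. Hsf1 itself was at 86.9, 92.5 and 77.1 CPM. Ubb, a ubiquitin gene, was lowest in plate 3, at 19.2, 22.4 and 39.9 CPM, and Bag3, an HSP70 co-chaperone, was at 8.55, 4.49 and 22.03 CPM. The lists of co-chaperones, TRiC and prefoldin subunits, endoplasmic reticulum chaperones and mitochondrial chaperones had 19, 13, 19 and 10 genes with enough counts. Of these, 0 were at least 2-fold higher than both other plates. As 1.87% of all genes were, 0 is close to that share in lists this short. In the same order, 6, 4, 7 and 5 lay above both other plates, as did 33.0% of all genes.

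Immediate early genes and markers of other cell types were examined in the same way. Of 16 immediate early genes with enough counts, 9 lay above both other plates (33.0% of all genes did), and 2, Fosb and Jun, were at least 2-fold higher (1.87% of all genes). Jun was at 849 CPM in plate 3, with 302 in plate 2 and 355 in plate 1, and Fosb was at 198, 46.7 and 56.5 CPM. Egr1 was lowest in plate 3, at 31.3, 49.4 and 53.7 CPM in plates 3, 2 and 1, as were Nr4a1 and Fosl2. The 8 B cell markers summed to 167 CPM in plate 3, with 14.4 in plate 2 and 8.26 in plate 1, and each single marker was found in 1.23% to 9.57% of plate 3 cells, 0% to 1.99% of plate 2 cells and 0% to 1.16% of plate 1 cells. Without the 85, 15 and 6 cells of plates 3, 2 and 1 that held a count of any B cell marker, the pair Hspa1a and Hspa1b was 15.6-fold higher in plate 3 than in plate 2 and 10.7-fold higher than in plate 1. The 5 regulatory T cell markers summed to 123, 97.0 and 67.5 CPM in plates 3, 2 and 1. Foxp3, which defines these cells, was at 44.9, 29.6 and 0 CPM, in 14.8%, 3.98% and 0% of cells. Ctla4 was at 9.97, 4.49 and 2.75 CPM (14, 5 and 2 counts). It alone of the 5 was over 2-fold higher in plate 3 than in both others, as were 1.87% of all genes. Il2ra was at 13.5, 8.98 and 2.75 CPM. Ikzf2 was at 27.8, 32.4 and 22.03 CPM and Tnfrsf18 at 27.1, 21.6 and 39.9 CPM, so neither was highest in plate 3. Without the 87, 31 and 30 cells of plates 3, 2 and 1 that held a count of any of these 5 genes, the pair was 12.8-fold higher in plate 3 than in plate 2 and 11.1-fold higher than in plate 1. The CD8 T cell markers summed to 17.1, 15.3 and 9.64 CPM in plates 3, 2 and 1, and the effector and memory markers to 195, 164 and 189 CPM. The myeloid markers, at 214, 268 and 302 CPM, and the NK cell markers, at 35.6, 39.5 and 44.1 CPM, were lowest in plate 3. Cd44, Il2ra, Cd8a and Cd8b1, whose proteins the gate excluded, were found in at most 10.5%, 2.16%, 1.74% and 5.25% of the cells of any plate. The part of the immediate early genes in the result was not tested.

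The HSP70 difference was spread over many cells. In plate 3, 130 of 324 cells (40.1%) held a count of Hspa1a or Hspa1b, against 11 of 201 in plate 2 (5.47%) and 8 of 172 in plate 1 (4.65%). Plate 3 had 52 cells with 1 count, 44 with 2 to 4, 23 with 5 to 9 and 11 with 10 or more, with a highest cell of 29. The 5 cells with most counts held 21.0% of the pair's counts in plate 3. In the other plates such cells held most of the 23 counts of each plate, 73.9% in plate 2 and 87.0% in plate 1. Without the 5 top cells of each plate the folds were 50.1 over plate 2 and 65.1 over plate 1. These folds rest on the few counts then left in plates 2 and 1, so their size carries no result. With each cell thinned to 2000 counts, which 272, 177 and 128 cells of plates 3, 2 and 1 reached and 52, 24 and 44 did not, 31.6% of plate 3 cells held a count, against 3.39% in plate 2 and 3.12% in plate 1.

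**Figure D3:**
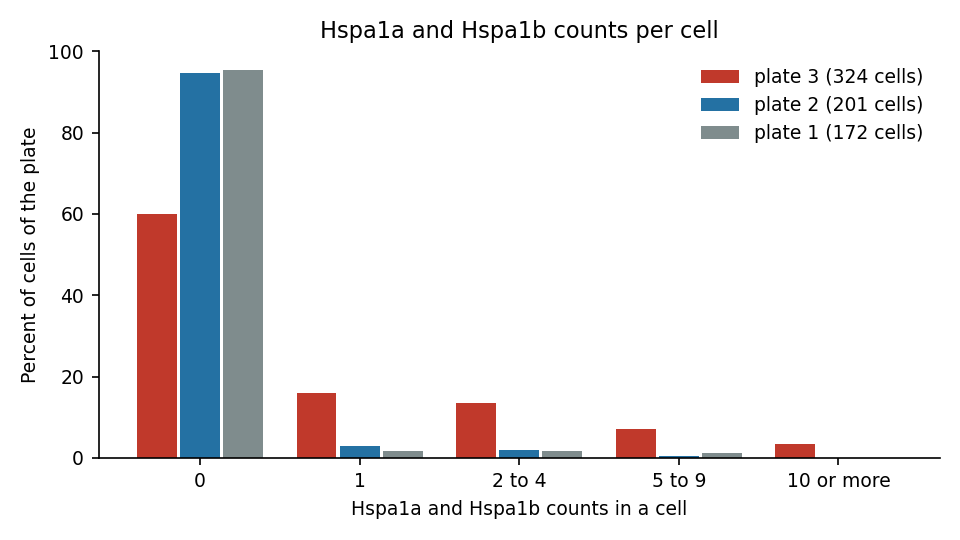
Percent of the cells of plates 3, 2 and 1 by their number of Hspa1a and Hspa1b counts. Of plate 3 cells 40.1% hold 1 count or more, against 5.47% in plate 2 and 4.65% in plate 1.

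Within plate 3 the pair was at a similar level along the numbering of cells. Over 4 runs of cell number with 81 cells each, the pair was at 382, 311, 332 and 361 CPM. The share of cells with a count was 35.8% to 44.4%. Over runs of 50 or 51 cells in plate 2 it was at 56.9, 14.4, 7.07 and 6.90 CPM, and over runs of 43 cells in plate 1 at 36.4, 14.9, 6.27 and 64.5 CPM, from 23 counts in each plate. Plate cell numbers recur between plates, with 173 shared by plates 3 and 2, 150 by plates 3 and 1 and 42 by plates 2 and 1. Of the 11 plate 2 cells with a count, 10 had a number also used in plate 3, and the plate 3 cell of that number held a count in 3. All 8 such cells of plate 1 had a number also used in plate 3, where the cell held a count in 4. Of all plate 3 cells, 40.1% held a count.

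Among thinned cells of plate 3 the HSP70 pair was also the most uneven of the members. The variance of Hspa1b was 2.79 times its mean, above 98.9% of the 5096 genes compared, and that of Hspa1a was 2.28 times, against a median of 1.36 over all genes. Hspa8, at a higher level, had 1.19 times, and Hsp90aa1 had 1.34 times. Dnajb1 had 1.75 times. In the other plates the order differed. Hspa8 had 1.71 times in plate 2 and 1.81 times in plate 1, against medians of 1.44 and 1.39 over all genes. In plate 2 Dnajb1 had 2.12, Dnaja1 2.01, Hsp90aa1 1.88 and Hsp90ab1 1.87 times. Hspa1b had 0.977 times in plate 2 and 1.63 times in plate 1, from 5 and 6 thinned counts.

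In plate 3 the other inducible members were not higher in cells with inducible HSP70. In thinned plate 3 cells, Dnajb1 averaged 0.221 counts in the 86 cells with a count of the pair and 0.306 in the 186 cells without. Hsp90aa1 averaged 0.872 in cells with and 0.898 in cells without. Hsp90ab1 averaged 2.78 in cells with and 2.27 in cells without, and Hsph1 averaged 0.209 and 0.140 in the same order. Fos averaged 1.22 in cells with and 0.909 in cells without, and Jun 1.74 in both. In plates 2 and 1, where only 6 and 4 thinned cells held a count of the pair, Dnajb1 averaged 0.167 and 0.25 in those cells, against 0.152 and 0.137 in the others. The cells share a library and these are descriptions without a test. Before thinning, cells with a count were deeper, with medians of 4933 and 3224 counts, and had nearly the same CD5 signal, with medians of 44056 and 45073.

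Over all 45 pairs of members, the Spearman correlation over thinned cells had medians of 0.023, -0.0057 and 0.0066 in plates 3, 2 and 1. Hspa1a with Hspa1b was the highest pair in plate 3, at 0.181 over 272 cells. The same pair was at -0.013 in plate 2 and 0.486 in plate 1, where only 1 thinned cell of each plate held Hspa1a. The cells of a plate share library and thinned depth, and counts per cell are few, so weak values carry no result. The genes outside the 10 whose counts were most like the summed inducible members, by the mean of the within-plate Spearman correlation over 3980 genes, were Fam3c, Fubp1, Psmb3, Pin4 and Pecam1, at means of 0.15 to 0.16 over 3 plates. In plate 3 Psmb3 and Pin4 were at 0.00080 and -0.038. For the constitutive members of the cytosol they were Fgfr1op2, Flna, Sys1, Rplp1 and Pglyrp2, at means of 0.14 to 0.16, with Rplp1 at -0.045 in plate 3.

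The study's comparison by self-reactivity set High against Low CD5 cells. None of the 10 members passed in edgeR's quasi-likelihood test at a Benjamini-Hochberg adjusted p of 0.05, whereas 9 of the 4813 genes tested did (0.187%). At an unadjusted p of 0.05, 1 member was below it, Hspa5, as were 6.15% of all genes (296). DESeq2's Wald test also called 0 members and called 0 genes, with 147 genes under an unadjusted p of 0.05. Cd5 mRNA, the check of the classes, rose by 1.70 on the log2 scale in High cells (SE 0.30, adjusted p = 0.0022, edgeR).

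Hspa5, the gene of the endoplasmic reticulum chaperone BiP, was the member nearest to the threshold. It was at 315, 383 and 390 CPM in High cells of plates 3, 2 and 1, against 223, 176 and 280 CPM in Low cells. All 3 High values lay above all 3 Low values, a pattern that 1 of 10 members and 7.9% of tested genes showed in either direction. High cells averaged 363 ± 41.6 CPM and Low cells 226 ± 52.4 CPM (SD, n = 3 plates). The log2 fold was 0.67 (SE 0.23, 95% interval 0.21 to 1.14, edgeR adjusted p = 0.602), positive in 3 of 3 plates, and did not pass. Middle cells were at 287, 382 and 168 CPM in plates 3, 2 and 1, so in plate 1 they lay below both ends.

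Within each plate the cells that held Hspa5 transcripts held more of them in the High class. High cells with a count averaged 3.21, 4.59 and 4.06 counts in plates 3, 2 and 1, against 2.13, 2.44 and 2.42 counts in Low cells. With cells thinned to 2000 counts the averages were 2.31, 2.31 and 1.67 counts in High cells, against 1.36, 1.25 and 1.33 counts in Low cells. The share of cells with a count had no common direction between High and Low cells. It was 29 of 70, 24 of 55 and 19 of 49 High cells in plates 3, 2 and 1, against 38 of 80, 18 of 46 and 24 of 48 Low cells. Thinned, it was 28.6%, 34.0% and 35.3% of High cells, against 34.2%, 19.5% and 30.8% of Low cells. Thinned Middle cells had the largest share in each plate, at 41.3%, 44.9% and 36.4%. Those with a count averaged 1.39, 1.525 and 1.3 counts in plates 3, 2 and 1. The top High cells held 14, 18 and 25 counts in plates 3, 2 and 1. Without the top Hspa5 cell of each plate and class, the levels were 279, 328 and 282 CPM in High cells, against 206, 159 and 256 CPM in Low cells, and the log2 fold was 0.51 (edgeR adjusted p = 0.772).

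Among the members Hspa5 also had the largest slope on CD5 relative to its error. Over 4 bins of CD5 fluorescence per plate it changed by 0.25 on the log2 scale per doubling of CD5 (SE 0.088, 95% interval 0.070 to 0.42, edgeR adjusted p = 0.831). The slope test called 6 of 5019 genes (0.12%) and 0 of 10 members, with 4.82% of genes and 1 member under an unadjusted p of 0.05. Of 22 listed endoplasmic reticulum chaperones and stress genes, 13 were tested between classes and 0 passed in either direction, 5 being positive and 8 negative, with a median log2 fold of -0.13 against 0.0017 over all tested genes. Dnajc10, a reductase of that compartment, had 1.04 (SE 0.47, edgeR adjusted p = 0.791).

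**Figure D4:**
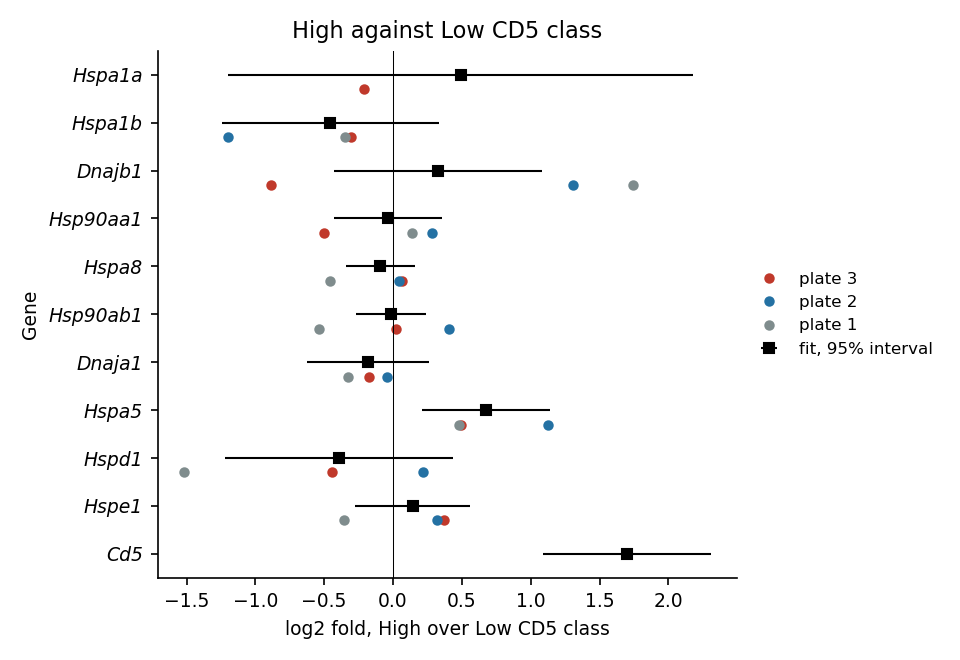
Log2 fold of High over Low CD5 class for the 10 members and Cd5, with the edgeR estimate and 95% interval (squares) and the ratio of CPM in each plate (circles, where neither class was at 0; not drawn for Cd5). The interval of Hspa5 lies above 0, with 3 plates positive, and the intervals of the other 9 members include 0.

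The inducible members had no common direction between classes, and plates differed. Dnajb1 was at 101, 118 and 80.9 CPM in High cells of plates 3, 2 and 1, against 188, 47.9 and 24.2 CPM in Low cells, so plate 3 ran opposite to plates 2 and 1. Its log2 fold was 0.33 (SE 0.37, edgeR adjusted p = 0.978), and whether the plates differ was not tested. Hsp90aa1 showed the same split of plates at a smaller size, with log2 ratios of -0.50, 0.28 and 0.13 in plates 3, 2 and 1. Hspa1b was at 210, 13.9 and 30.3 CPM in High cells (62, 4 and 6 counts), against 259, 31.9 and 38.6 CPM in Low cells (94, 8 and 8 counts). It was lower in 3 of 3 plates, with a log2 fold of -0.45 (SE 0.39, edgeR adjusted p = 0.957). With cells thinned to 2000 counts it was at 232, 21.3 and 14.7 CPM in High cells, against 226, 12.2 and 51.3 CPM in Low cells. Thinned, it was thus lower in plate 1 only.

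Hspa1a could be read in 1 plate only. It was at 64.3 CPM in High cells of plate 3 and 74.5 CPM in Low cells. In Low cells of plates 2 and 1 it had 0 counts, which allows up to 12.0 and 14.5 CPM, and in High cells of plate 2 it also had 0, which allows up to 10.4 CPM. The positive sign of its fitted log2 fold, 0.49 (SE 0.84), goes with 4 counts of 1 High cell in plate 1. In every class, plate 3 stood above the other plates for the HSP70 pair: 334, 380 and 274 CPM in Low, Middle and High cells of plate 3, against 31.9, 19.1 and 13.9 CPM in plate 2 and 38.6, 15.6 and 50.6 CPM in plate 1.

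Hspa8 and Hsp90ab1, the most abundant members, had the narrowest intervals. Hspa8 had a log2 fold of -0.09 (95% interval -0.34 to 0.16), Hsp90ab1 -0.02 (-0.27 to 0.24) and Dnaja1 -0.18 (-0.62 to 0.26). For the mitochondrial chaperonin, Hspe1 had 0.14 (-0.27 to 0.56) and Hspd1 -0.39 (-1.22 to 0.43), the wide interval of Hspd1 going with 3 to 59 counts per plate and class. Of the other chaperone lists, 7 heat shock factors and inducible chaperones, 15 co-chaperones, 11 TRiC and prefoldin subunits and 5 mitochondrial chaperones were tested, with 0 passing in each.

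**Figure D5:**
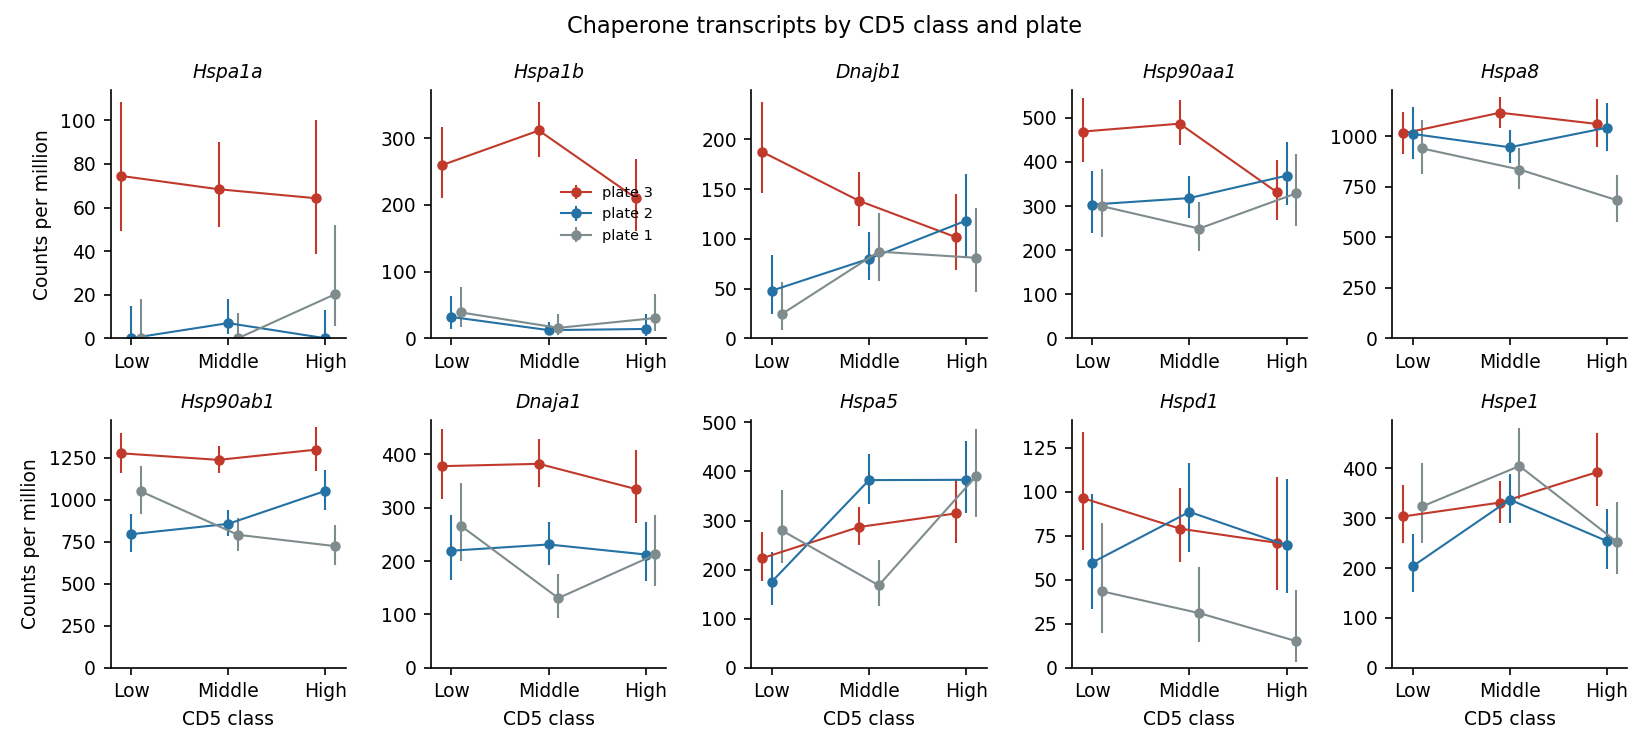
CPM of each member in Low, Middle and High CD5 cells of plates 3, 2 and 1, with exact 95% Poisson intervals for counting error. Hspa5 is higher in High than in Low cells of each plate, and Dnajb1 is lower in High than in Low cells of plate 3 and higher in plates 2 and 1.

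The inducible share of member counts also moved in opposite ways along CD5. In plate 3 it was 23.1%, 22.6% and 16.9% in Low, Middle and High cells. In plate 2 it was 13.5%, 12.8% and 14.3%, and in plate 1 it was 11.1%, 13.0% and 16.8%. The 95% intervals of the 3 plates overlapped in High cells, at 14.9 to 19.1, 12.2 to 16.6 and 13.8 to 20.2 in plates 3, 2 and 1. In Low cells that of plate 3, 21.1 to 25.3, lay above those of plates 2 and 1.

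Some counts cannot be assigned to a single gene with certainty. Of the 75-base stretches in the last 500 bases of the Hspa8 transcripts, 80.8% also occur in transcripts of other annotated genes, among them Gm15459. The share was 39.0% for Hspe1 and 2.35% for Hsp90ab1, and 0% for the other 7 members, Hspa1a and Hspa1b included.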

How the data were processed

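Libraries followed SORT-seq, in which CEL-Seq2 primers with a molecular identifier tag the 3' ends of each well's transcripts. Reads were mapped with BWA, version not given, to mm10, per the submitters' processing notes. The deposited gene table holds expected counts, which the authors corrected for identifier collisions and did not scale between cells (read from the values), for 14355 genes and 84 spike-ins; spike-ins were left out of totals. The deposited CD5 value is a fluorescence signal per cell, with no normalization stated, and the CD5 class is the authors' own. Of the table's cell columns, 0 were unused.

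Counts of each plate and CD5 class (9 sums), or of 4 CD5 bins per plate (12 sums), were rounded and tested over all genes with edgeR 4.0.16 (quasi-likelihood, TMM, filterByExpr, plate as block, Benjamini-Hochberg at 0.05) in R 4.3.3, beside DESeq2 1.42.0; the procedure was tested on simulated data. Deviations from class means correlated at 0.190 to 0.497 within plates, over 929 genes, and the plate number in the labels marks a shared plate. Endogenous counts were 726230 to 1404160 per plate. Single cells were compared after thinning to 2000 counts. Python 3.11.15, numpy 2.4.6, pandas 2.3.3, scipy 1.17.1 and matplotlib 3.10.9 were used.

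The members and lists were chosen with earlier results of these data known. Named genes are the 10 members, Cd5, up to 3 genes of smallest p per chaperone and immediate early list, and the 5 genes most like the inducible and constitutive sums (mean of at least 0.05 counts per cell). Genes named from lists for their plate levels, and Gm15459, were chosen after their values were seen. Promoters and gene models are from RefSeq (GRCm38.p6) and GENCODE (GRCm38).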

Additional observations from a re-analysis of the deposited data

How the results depend on the processing

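No member passed the threshold under any alternative in which it was tested, in either the class or the slope test. A mean of at least 50 counts left out Hspa1a, Hspa1b, Dnajb1 and Hspd1, and thinning left out Hspa1a and Hspd1. Genes called between High and Low numbered 9, and 0 with DESeq2's Wald test (147 at an unadjusted p under 0.05), 16 with no filter on low counts, 0 without the replicate block for the plate (197), 3 with cells thinned and 1 without the top Kcnq1ot1 cell. Leaving out 1 plate gave 0 to 20, with 0 without plate 1 (289), 20 without plate 2 and 0 without plate 3 (282). The slope called 6 genes, and 3 with DESeq2, 10 with no filter, 0 without the replicate block (172), 1 without the top Kcnq1ot1 cell, and 0 to 14 with 1 plate left out: 0 without plate 1 (263), 14 without plate 2 and 0 without plate 3 (214). Where fewer genes were tested the filter or the thinning left them out; otherwise the cause was not tested.

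Hspa5 kept its sign in the 12 alternatives of each test, with log2 folds of 0.51 to 0.83 between classes (adjusted p 0.372 to 0.998) and slopes of 0.18 to 0.30. Without plate 2 its 95% interval between classes included 0, at -0.015 to 1.04 (edgeR unadjusted p = 0.057). The slope without plate 2 had an edgeR unadjusted p of 0.077, so 0 members were under 0.05 in either test. Other members changed sign under some settings. Between classes, leaving out 1 plate gave -0.19 to 0.45 for Hspa1a, -0.15 to 1.42 for Dnajb1, -0.19 to 0.19 for Hsp90aa1, -0.21 to 0.055 for Hspa8, -0.20 to 0.21 for Hsp90ab1 and -0.035 to 0.35 for Hspe1. Single settings gave 0.0099 for Hsp90aa1 without the top cell of each plate, 0.0054 for Hsp90aa1 and 0.0079 for Hsp90ab1 without the top Hspa5 cells, and -0.025 for Hspe1 with thinned cells. For the slope, no replicate block gave -0.0033 for Hspa1a, and leaving out 1 plate gave -0.029 to 0.16 for Hspa1a, -0.0019 to 0.53 for Dnajb1, -0.079 to 0.0015 for Hsp90aa1, -0.092 to 0.026 for Hsp90ab1 and -0.096 to 0.00074 for Dnaja1. Without plate 3, Hspa1a and Hspa1b did not pass the filter in either test.

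The inducible share in plates 3, 2 and 1 was 30.2%, 20.3% and 20.02% with Dnaja1 counted as inducible, and 11.3%, 3.20% and 3.45% with Hsp90aa1 counted as constitutive. The fold of the HSP70 pair over plates 2 and 1 was 50.1 and 65.1 without the 5 top cells, which left few counts there. Thinned it was 20.2 and 12.5, from 6 and 7 counts in plates 2 and 1. The count of 159 genes 2-fold higher in plate 3 was 141 thinned and 157 with TMM factors. Of the variance-to-mean ratios, 61 of 97 moved by more than the spread between plates. The alternatives without B cell or regulatory T cell marker cells, without top Hspa5 cells, without the 5 top cells, and those of the plate folds were chosen after seeing the data. Few counts limit Hspa1a and Hspa1b in plates 2 and 1, and Hspd1 in plate 1.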
